A study of Rattus norvegicus with 6 samples.

Results

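The genes described here are 10 rat genes of the EGR, KLF and IER groups: Egr1, Egr2, Egr3, Klf2, Klf4, Klf6, Klf9, Klf10, Ier2 and Ier3. Every probe set that the platform annotation assigned to one of these symbols alone was taken, which gave 19 of the 31042 probe sets on the array that are not Affymetrix controls. All 10 genes had at least 1 probe set, out of 14217 genes named on the array.

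The cells were GH4C1, an established rat line from a pituitary tumour whose cells make growth hormone and prolactin, as somatolactotrophs do. All 6 cultures received lentiviral particles at a multiplicity of infection of 5 in the presence of polybrene for 16 h and were harvested after 4 days in regular medium. In 3 cultures the virus carried POU1F1(R271W), driven by the PGK promoter and linked by an IRES to EGFP. POU1F1 is the transcription factor of growth hormone, prolactin and thyrotropin cells, and the title of the series describes this mutant as dominant negative. The other 3 were controls, for which the design text names a PGK-driven EGFP vector and the sample labels only the word control. The endogenous Pou1f1 gene was present in both groups. No culture was stimulated before harvest and there was a single time point, so the rapid induction that gives these genes their name was not measured. The question of the comparison was how expressing the mutant factor changes transcript levels in these cells.

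EGR proteins are zinc-finger transcription factors that bind GC-rich sites, and their genes are switched on within minutes of growth factor, calcium or cAMP signals through serum response factor (SRF) with its ETS partners and through CREB. KLF proteins bind related GC and CACCC sequences with a similar finger domain, and several of them, among them Klf2, Klf4, Klf6 and Klf10, are also induced rapidly by external signals, whereas Klf9 is a known target of glucocorticoid and thyroid hormone receptors. Ier2 and Ier3 carry no zinc fingers and were named as immediate early response genes.

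Promoter elements through which SRF and CREB act are shown for 3 members that hold such an element. They name upstream factors whose own transcripts are described further on. The sequences are from RefSeq on the GRCr8 build, 80 bases running from 120 to 41 before the annotated start, and 6 of the 10 members had a promoter entry (Egr1, Egr2, Ier2, Klf4, Klf6 and Klf9). Capitals mark a CArG box, the binding sequence of SRF, or the core of a cAMP response element (CRE), TGACG on either strand, which in Ier2 is the full palindrome TGACGTCA and so holds the core on both strands.
Egr2 (chr20:21054482-21054561, minus strand): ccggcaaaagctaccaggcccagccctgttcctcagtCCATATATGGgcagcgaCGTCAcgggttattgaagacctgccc
Ier2 (chr19:40399253-40399332, plus strand): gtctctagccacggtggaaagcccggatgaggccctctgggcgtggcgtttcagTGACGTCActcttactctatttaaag
Klf9 (chr1:230126526-230126605, plus strand): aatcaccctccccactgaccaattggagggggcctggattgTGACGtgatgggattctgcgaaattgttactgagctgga
A CArG box stood in the 250 bases before the start of Egr1, Egr2 and Klf6, against 1.5% of all 33469 promoters in the table. The CRE core stood in 4 of the 6 (Egr1, Egr2, Ier2 and Klf9), against 18.2% of all promoters, and the full palindrome in Ier2 alone of the 6, against 1.59%. The letters TATNCAT, the core of the sequence POU1F1 is known to bind, occurred on neither strand in the 6 windows, against 8.73% of all promoters. Another 6 motifs were searched on both strands of the same windows. CCGGAA, a core bound by ETS factors, stood in Egr2, Ier2 and Klf9 (12.6% of all promoters), and TATAAA in Klf4 (12.9%). For the families' own sites, the GC box GGGCGG stood in Egr2 and Klf6 (30.5% of all promoters) and CACCC in Egr1 and Klf9 (49.2%), while the EGR site, as GCGTGGGCG or GCGGGGGCG, stood in 0 of the 6 (2.85% of all promoters). The AP-1 site TGACTCA also stood in 0 of the 6 (4.05%). These 6 are not in capitals above, and GC box and EGR letters can overlap by a few bases. These are matches of letters within one window and not measured binding.

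Across the group, Klf10 rose and Ier3 fell in the R271W cultures, and no other member passed the test. Signals are MAS5 intensities, each array scaled by the authors to a common trimmed mean, and were tested as log2 values with limma, with p-values adjusted over all 18625 probe sets bright enough to test. Of the 19 member probe sets, 14 from 9 genes were tested and 5 were too dim, including both of Egr2. Among the 14, 1 was called higher and 1 lower at an adjusted p under 0.05, which is 14.3%, against 15.8% of all tested probe sets (8.57% higher and 7.22% lower). The members were thus called about as often as probe sets in general. The groups did not overlap for 3 of the 14, or 21.4%, against 33.9% of all tested probe sets. The median log2 fold change was -0.10 over the 14 and 0.07 over all that were tested.

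**Figure D1:**
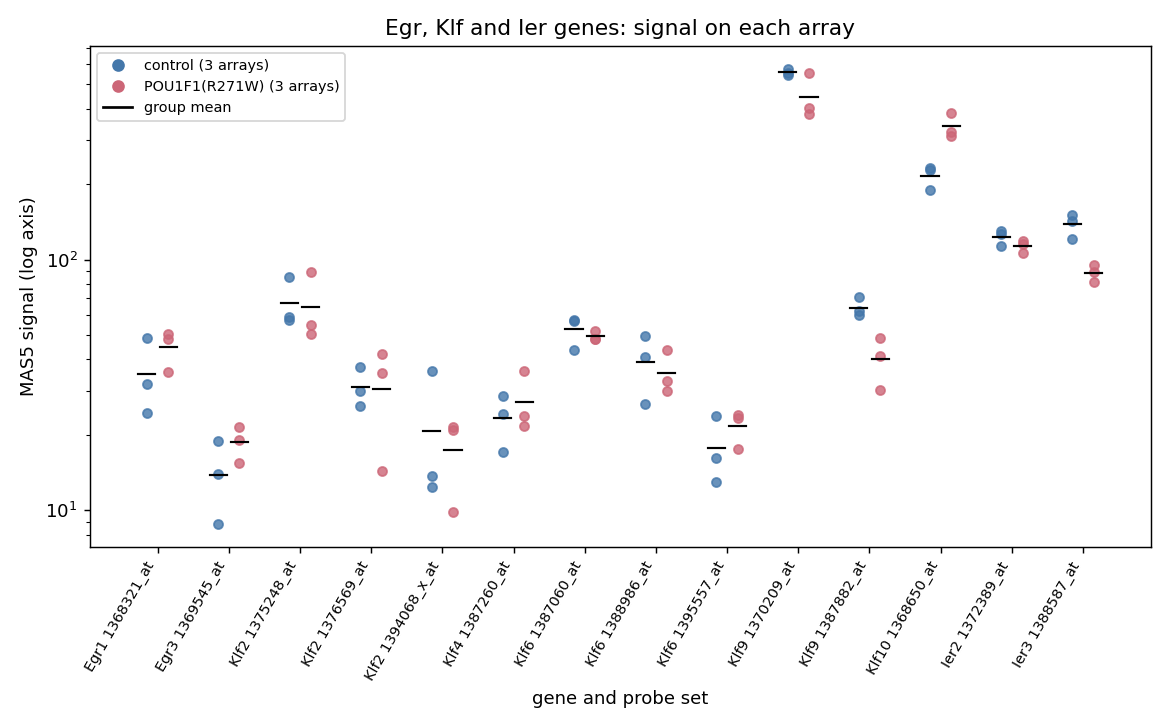
MAS5 signal (log axis) of the 14 tested member probe sets on each array, with control arrays in blue, R271W arrays in red and the group mean as a bar. The groups are apart for Klf10, Ier3 and the dimmer tested Klf9 probe set and overlap elsewhere; heights of different probe sets are not comparable.

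Several facts about the whole series bear on these values. Median array signals were 22.4 to 23 in controls and 25.5 to 27 with R271W. The hybridisation spikes, added to every sample, read 0.235 higher on the log2 scale with R271W, and for beta-actin the 3' probe set over the 5' probe set gave 1.97 ± 0.101 against 1.82 ± 0.00577 (SD, n = 3 each), without overlap in both cases. Poly-A spikes and the same ratio for GAPDH overlapped. Centring each array on its median would move all log2 changes by -0.20 and on its 75th percentile by -0.08. Of the 7 markers of the line, 5 were tested, all bright, and they did not move one way: 1 rose and 2 fell. These were 20% and 40% of the 5, against 9.87% higher and 8.98% lower of all tested genes. Gh1, the growth hormone gene, read 6443 ± 348 in controls and 6338 ± 867 with R271W (limma adjusted p = 0.853), and Chga did not pass either. Prl, the prolactin gene, fell from 4332 ± 188 to 3175 ± 171 (adjusted p = 0.00048, or 0.0583 without the intensity trend), and Pou1f1 fell by 0.33 on the log2 scale (adjusted p = 0.00486, or 0.107 without the intensity trend), or by 0.20 with quantile normalization. Chgb, the gene of the granule protein chromogranin B, rose from 2779 ± 145 to 3815 ± 94 (adjusted p = 0.000337, or 0.0522 without the intensity trend). Ghrhr and Drd2 lay below the signal filter. The summed signal of 18 markers of other pituitary and non-endocrine cells was 3064 to 3291 in controls and 1488 to 1594 with R271W, most of it from Dcn, the proteoglycan decorin (2770 ± 90.4 against 1205 ± 37.1). Of these 18, 6 were tested and 2 of them fell (33.3%, against 8.98% of all tested genes), Dcn and Sox2. On its brightest probe set Sox2 read 236 ± 8.91 in controls and 176 ± 17 with R271W (limma adjusted p = 0.0196). None of the 18 was at exactly 0, and Pomc and S100b had means of 6.59 and 2.73 in controls and 5.01 and 6.74 with R271W. The part of any of these shifts in the member values was not tested.

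Klf10 encodes a repressor also known as TIEG, a gene induced early by TGF-beta. Its single probe set, 1368650_at, read 228, 190 and 231 in controls and 312, 384 and 322 with R271W. Every R271W array was above every control array. The means were 216 ± 22.9 and 339 ± 39.1 (SD, n = 3 each). The log2 fold change was 0.65 (SE 0.12, 95% confidence interval, CI, 0.40 to 0.90, limma adjusted p = 0.00198), or 1.57-fold. Among all tested probe sets, 15.8% had an absolute log2 change at least as large and 3.93% an adjusted p at least as small. The rise kept its direction under each setting tried, from 0.45 with median centring to 0.71 without R271W replicate 1. It missed the threshold in the fit without limma's intensity trend (adjusted p = 0.0546, range over all alternatives 0.000733 to 0.0546). In bulk RNA, more cells expressing a gene and more RNA per cell cannot be told apart, and this holds for each value here.

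Ier3, also known as IEX-1, encodes a small protein induced by stress and growth signals that acts on cell survival. Its probe set, 1388587_at, read 121, 150 and 143 in controls and 94.9, 89 and 81.7 with R271W. Here every R271W array was below every control array. The means were 138 ± 15.4 and 88.5 ± 6.62 (SD, n = 3 each). The log2 fold change was -0.63 (SE 0.15, CI -0.95 to -0.32, limma adjusted p = 0.0093), which is 1.55-fold lower. As large an absolute change was seen for 16.5% of tested probe sets. The adjusted p stayed under the threshold in all 17 alternatives, from 0.00109 to 0.0494, with log2 changes of -0.83 to -0.57.

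Ier2, a nuclear protein gene of the same early response, read 130, 127 and 113 in controls and 119, 106 and 115 with R271W, so the groups overlapped. Its log2 fold change was -0.12 (CI -0.41 to 0.17, limma adjusted p = 0.598). The interval leaves out a change as large as that of Ier3 in the same direction, but the difference between the genes was not tested.

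Klf9, a repressor that lies downstream of nuclear hormone receptors, missed the threshold on both of its tested probe sets. On the brighter, 1370209_at, the controls read 554, 547 and 577 and the R271W arrays 380, 402 and 557. R271W replicates 1 and 2 lay below the controls and replicate 3 lay among them. The means were 560 ± 15.8 and 446 ± 96.7 (SD, n = 3 each), a log2 fold change of -0.35 (CI -0.61 to -0.08, limma adjusted p = 0.0724). Probe set 1387882_at read 70.7, 62.2 and 60.1 in controls and 41.2, 30.2 and 48.5 with R271W, without overlap, and its log2 fold change was -0.71 (CI -1.21 to -0.21, limma adjusted p = 0.0554). Replicate 3 was the highest of the R271W arrays on this probe set as well.

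The call of Klf9 turned on that array and on the choice of scaling, filter and array weights. Without R271W replicate 3 the log2 fold changes were -0.52 (limma adjusted p = 0.00139) and -0.86 (0.031), both lower. Both probe sets were also called lower with median centring (adjusted p = 0.00919 and 0.0126), with 75th percentile centring (0.0382 and 0.0353), with a filter at the 60th percentile (0.0407 and 0.0372) and with array weights (0.031 and 0.0342). Over all 17 alternatives the adjusted p ran from 0.00139 to 0.261 on the brighter probe set and from 0.0126 to 0.173 on the other. The third Klf9 probe set, 1390076_at, was too dim to test, with signals of 1.01 to 15 over the 6 arrays and a log2 fold change of 0.05 without the filter (adjusted p = 0.99).

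**Figure D2:**
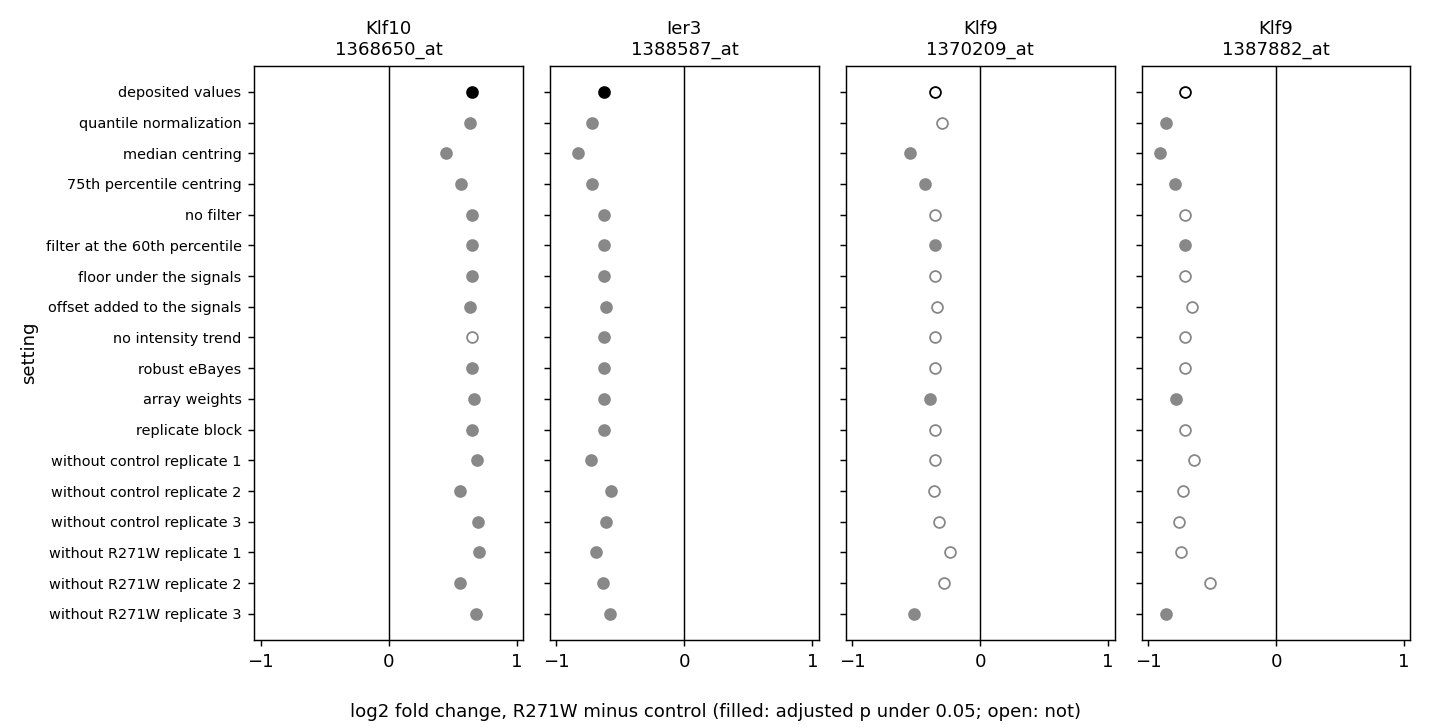
Log2 fold change (R271W minus control) of Klf10, Ier3 and both tested Klf9 probe sets under the deposited values and 17 alternatives; filled points have an adjusted p under 0.05. Ier3 is filled throughout, Klf10 is open only without the intensity trend, and Klf9 is filled in 5 and 6 of the alternatives.

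Egr1, the prototype of the EGR genes and a partner of the LH-beta promoter in gonadotrophs, had low signals of 48.6, 24.5 and 32 in controls and 50.6, 48.4 and 35.6 with R271W. The groups overlapped, and the log2 fold change was 0.40 (CI -0.24 to 1.04, limma adjusted p = 0.415). Egr3 read 13.9, 8.82 and 18.9 in controls and 15.5, 19.1 and 21.4 with R271W, a log2 fold change of 0.48 (CI -0.58 to 1.55, adjusted p = 0.565). Both intervals hold 0 and changes in either direction.

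Egr2, known as Krox20 for its part in hindbrain and myelin development, was near the bottom of the scale. Its probe set 1387306_a_at read 6.73, 1.31 and 11.3 in controls and 12.2, 10.1 and 9.43 with R271W. On 1398266_a_at the controls read 0.709, 0.543 and 1.13 and the R271W arrays 1.83, 2.61 and 4.19. The R271W arrays were all above the controls on the second of these, but both lay under the filter signal of 11.2. In the fit without a filter their limma adjusted p values were 0.588 and 0.386, with log2 fold changes of 1.18 (CI -0.90 to 3.25) and 1.84 (CI -0.44 to 4.12).

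Klf2 and Klf4, close relatives known from endothelial quiescence and from pluripotency, had signals that overlapped between the groups on each tested probe set. The brightest of the 5 Klf2 probe sets, 1375248_at, read 85.3, 57.5 and 59.1 in controls and 89.2, 50.4 and 54.9 with R271W. One array was high in each group, replicate 1 in both. Its log2 fold change was -0.08 (CI -0.60 to 0.45, limma adjusted p = 0.872), and the other tested Klf2 probe sets gave -0.14 and -0.15 (adjusted p = 0.852 and 0.884). Klf4 read 28.6, 17.1 and 24.2 against 35.8, 23.7 and 21.6, a log2 fold change of 0.21 (CI -0.58 to 1.01, adjusted p = 0.753). The remaining Klf2 probe sets were not tested, at signals of 0.617 to 15 over both groups.

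Klf6, a broadly expressed factor also described as a growth suppressor, was read by 3 tested probe sets. The brightest, 1387060_at, gave 57.1, 57.3 and 43.7 in controls and 48, 52 and 48.3 with R271W. The R271W arrays lay inside the range of the controls. Its log2 fold change was -0.08 (CI -0.54 to 0.38, limma adjusted p = 0.844), while 1388986_at gave -0.12 (adjusted p = 0.845) and 1395557_at 0.32 (adjusted p = 0.668), so the probe sets differed in sign without any of them passing.

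**Figure D3:**
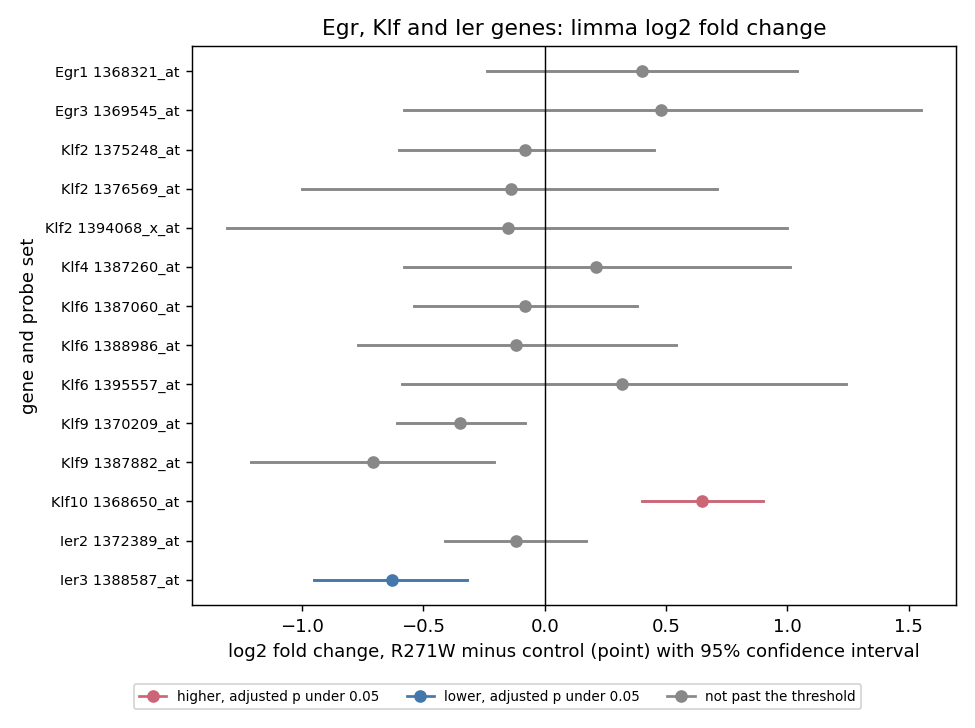
Log2 fold change (R271W minus control, points) with 95% confidence intervals of the 14 tested member probe sets. The intervals of Klf10, Ier3 and both Klf9 probe sets lie on one side of 0, and after adjustment over all tested probe sets only Klf10 (0.65) and Ier3 (-0.63) passed.

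Relatives of the members in the same families changed in both directions. Counted by the brightest probe set of each gene, 2 of 13 tested genes rose and 1 fell, against 9.87% higher and 8.98% lower of all 10143 genes tested, with a median log2 fold change of -0.15. Klf7, a factor of neuronal and adipose cells, read 180, 204 and 193 in controls and 96.1, 116 and 134 with R271W. All its R271W arrays were below the controls, and it fell by 0.75 on the log2 scale (SE 0.14, limma adjusted p = 0.00271). Its other tested probe sets read -0.33 (adjusted p = 0.245) and -0.96 (adjusted p = 0.0983), also without overlap.

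Klf5, a factor of proliferating epithelia, rose by 0.43 on the log2 scale on its brightest probe set (379 ± 23.8 to 510 ± 20.9, n = 3 each, limma adjusted p = 0.00426). Its other tested probe sets overlapped between the groups, at -0.06 (adjusted p = 0.865) and 0.26 (adjusted p = 0.352), and an untested one read -0.27. The Klf5 call ended with median centring (0.23, adjusted p = 0.0994) and without the intensity trend (0.0662). Klf11, the other TIEG gene, read 90.4, 103 and 104 in controls and 167, 138 and 123 with R271W. It rose by 0.52 (adjusted p = 0.0313), a call that ended with quantile normalization (0.0637), median centring (0.151), 75th percentile centring (0.0588) and no intensity trend (0.097). It also ended without control replicates 1, 2 or 3 (0.105, 0.0592 and 0.0575) and without R271W replicates 1 or 2 (0.123 and 0.0726). The dimmer Klf11 probe sets read 0.40 (adjusted p = 0.555) and, untested, -0.06. Klf3 at -0.27 (adjusted p = 0.145) and Sp1 at -0.16 (adjusted p = 0.254) on the log2 scale did not pass, and were called lower with median centring (0.0127 and 0.0135). The other Klf3 probe sets also read below 0, and the other Sp1 probe sets read 0.07, 0.01, 0.12 and 0.08.

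Among the cofactors that EGR and KLF proteins recruit, 1 of 10 tested genes rose and 1 fell. At 10% each way this was close to the 9.87% and 8.98% of all tested genes. Counted by an unadjusted limma p under 0.05 it was 6 of the 10, or 60%, against 33.4% of all tested genes. The median log2 fold change was -0.04 against 0.06 over all tested genes. Nab2 encodes a corepressor that binds EGR proteins and is itself induced by them. It read 481, 456 and 488 in controls and 308, 300 and 349 with R271W, and fell by 0.58 on the log2 scale (SE 0.09, limma adjusted p = 0.000852). The R271W arrays were all below the controls, and neither tested probe set of its paralogue Nab1 passed. The brighter read -0.06 (adjusted p = 0.837) with arrays that overlapped, and the other read 99, 101 and 102 in controls against 79.8, 92 and 91.2 with R271W, without overlap, at -0.20 (adjusted p = 0.403). Ep300, the acetyltransferase p300 that serves as a coactivator, went from 491 ± 42.7 up to 786 ± 95.4 (n = 3 each), or 0.67 on the log2 scale (limma adjusted p = 0.000558). Nab2 and Ep300 were called in each of the 17 alternatives.

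**Figure D4:**
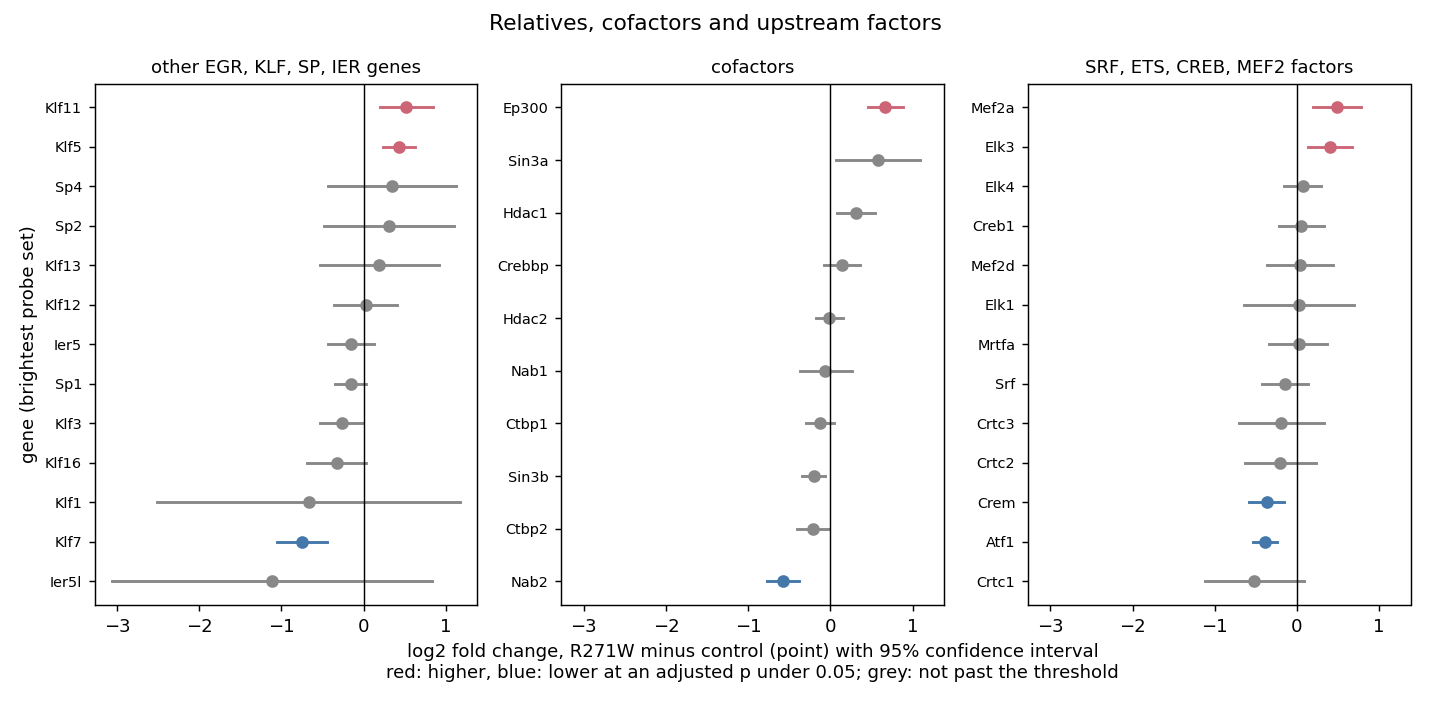
Log2 fold change (R271W minus control, points) with 95% confidence intervals for the brightest probe set of each tested relative, cofactor and upstream factor; red is higher, blue lower and grey not past the threshold. Red and blue points stand in each of the 3 panels, with Nab2 (-0.58) and Ep300 (0.67) at the ends of the cofactors.

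Of the upstream factors of early gene promoters, 2 of 13 tested genes rose and 2 fell (15.4% each way, against 9.87% higher and 8.98% lower of all tested genes), with a median log2 fold change of 0.02. Srf and Creb1, the genes of SRF and CREB, did not pass. Their brightest probe sets read -0.14 (limma adjusted p = 0.529) and 0.05 (adjusted p = 0.829) on the log2 scale. The other tested probe sets, at 0.16 and 0.97 for Srf and -0.07 for Creb1, did not pass either. Atf1, a CREB relative, fell by 0.39 on the log2 scale, with signals of 1258 ± 54.6 and 957 ± 17 (n = 3 each, limma adjusted p = 0.00185, or 0.067 without the intensity trend). Crem, which encodes both activators and the repressor ICER of CRE-driven genes, fell by 0.37 on the log2 scale (adjusted p = 0.0216), and its other called probe sets fell by 0.45 and 0.48. Of the Crem probe sets that did not pass, 1 read above 0 (0.06, adjusted p = 0.912). The Crem call ended without control replicates 2 or 3 (0.0706 and 0.0996), without R271W replicates 2 or 3 (0.0617 and 0.052) and without the intensity trend (0.108). The calls of Mef2a (0.49, adjusted p = 0.0284) and of the ETS partner Elk3 (0.40, adjusted p = 0.0476), both higher, ended with median centring (0.176 and 0.33), with the other scalings (0.0592 to 0.11) and without the intensity trend (0.0847 and 0.112), and that of Elk3 also with no filter (0.061) and robust eBayes (0.0511). For Mef2a they ended without control replicates 1 or 3 or R271W replicates 1 or 2 (0.0632 to 0.108), and for Elk3 without any array but control replicate 3 (0.084 to 0.16). A dimmer Elk3 probe set rose by 1.00 on the log2 scale, from 31.3 ± 0.618 to 62.6 ± 4.76 (adjusted p = 0.00775). Probe sets of the opposite sign that did not pass read -0.38 for Mef2a (adjusted p = 0.275) and -0.82 for Elk3 (adjusted p = 0.415).

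Other immediate early genes, leaving aside the AP-1, DUSP and Sprouty groups, had 1 of 24 tested members that rose (4.17%, against 9.87% of all tested genes) and 3 that fell (12.5%, against 8.98%), with a median log2 fold change of -0.16. Nfil3, a bZIP repressor, showed the largest of these changes. It read 135, 133 and 140 in controls and 64, 63.2 and 27.8 with R271W, and fell by 1.49 on the log2 scale (limma adjusted p = 0.00187, or 0.0621 without the intensity trend). Plk2, a polo-like kinase gene, rose by 0.69 on the log2 scale, with signals of 168 ± 10.8 and 272 ± 17 (n = 3 each, limma adjusted p = 0.000724). Mcl1, a survival gene of the BCL2 family, fell by 0.48 (adjusted p = 0.00299, or 0.0872 without the intensity trend) and by 0.88 on its other called probe set. Nr4a1, an orphan nuclear receptor gene induced by cAMP, fell by 0.55 (adjusted p = 0.0247), and that call ended without control replicates 2 or 3 (0.106 and 0.0564), without R271W replicate 1 (0.0849) and without the intensity trend (0.122).

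In the RAS, ERK and ERK5 cascade 2 of 12 tested genes rose (16.7%, against 9.87% of all tested genes) and 1 fell (8.33%, against 8.98%), with a median log2 fold change of 0.09. Rps6ka3, which encodes the ERK-activated kinase RSK2, rose by 0.43 on the log2 scale (limma adjusted p = 0.0067), or 0.24 with median centring (adjusted p = 0.128) and an adjusted p of 0.0649 without the intensity trend. Rps6ka5, which encodes the related kinase MSK1, rose by 0.40 (adjusted p = 0.0332), a call that ended without any control array or without R271W replicate 1 (0.0582 to 0.128), with median centring (0.243), with 75th percentile centring (0.0819) and without the intensity trend (0.146). Map2k1, the gene of the ERK kinase MEK1, fell by 0.32 (adjusted p = 0.0422), a call that ended without any array but R271W replicate 1 (0.0814 to 0.12), with no filter (0.0543) and without the intensity trend (0.13).

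The TGF-beta list, which holds the signal that gave Klf10 its other name, had 1 of 10 tested genes that rose and 1 that fell, both of them ligands, with a median log2 fold change of 0.08. At 10% each way this was close to the 9.87% higher and 8.98% lower of all tested genes. Tgfb3 read 29.5, 12.4 and 27.3 in controls and 68, 71.5 and 61.5 with R271W, a rise of 1.64 on the log2 scale (SE 0.33, limma adjusted p = 0.00406, or 0.0533 without the intensity trend). Its probe set was too dim to be tested with the filter at the 60th percentile. Tgfb2 read 172, 149 and 140 in controls and 90.4, 82.9 and 102 with R271W, and fell by 0.74 (adjusted p = 0.00319) and by 0.61 on its other called probe set (adjusted p = 0.0257). In both ligand genes the groups did not overlap. Of the glucocorticoid and thyroid hormone list, which holds regulators and co-targets of Klf9, 0 of 8 tested genes passed with limma, where 9.87% of all tested genes were called higher and 8.98% lower. In this list 2 genes (Thra and Thrb), or 25% of it, had an unadjusted p under 0.05, against 33.4% of all tested genes, with a median log2 fold change of 0.09. With quantile normalization 2 of the list were called higher, without R271W replicate 1 there was 1 higher, and without R271W replicate 3 there was 1 lower.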

How the data were processed

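Biotin-labelled RNA from 6 GH4C1 cultures was hybridised to 1 Affymetrix rat array each, per the labels' protocols. The authors deposited 1 intensity per probe set and array, on a linear scale, and the submitters' processing notes name MAS5. The sources used here give neither its version nor its detection calls. Each array had a mean of 100 after trimming 2% at each end. The labels call the replicates biological. The p-values weigh the difference between the groups against the spread between these samples within groups.

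Of 31042 non-control probe sets, 20826 had 1 symbol in the platform table, 436 had several and 9780 are unnamed here; symbols were looked up by Entrez ID in RefSeq (GRCr8). Log2 signals were fitted in limma 3.58.1 under R 4.3.3, with group as the only term and eBayes moderated along an intensity trend (two-sided), over the 18625 probe sets at or above the 40th percentile of mean log2 signal (a signal of 11.2), calling an adjusted p (Benjamini-Hochberg) under 0.05. A gene in a list was represented by its brightest probe set. The script was tested on simulated data. Same-numbered arrays did not deviate together (correlations of -0.0201 to 0.0101), so the numbers were not used as pairs in the main fit. These correlations cannot show whether the cultures were handled in pairs. Named were all members and, in each list, up to 6 called genes with the smallest p, some uncalled relatives, and probe sets differing in sign. Srf and Creb1 were named because the printed promoter elements bind their products. Members and lists were chosen with earlier results of these data known. The number of arrays limits the precision. Within groups the median SD of log2 signal was 0.109 at signals of 200 or more and 0.285 for tested ones below. Figures used matplotlib 3.10.9 in Python 3.11.15.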

Additional observations from a re-analysis of the deposited data

How the results depend on the processing

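Alternatives were 3 scalings, no filter or one at the 60th percentile, a floor or offset of 3.72 (the 20th percentile of signals), eBayes without the intensity trend, robust eBayes, weights for arrays, a replicate block, and leaving out each array. Of the member probe sets, 1 was called higher and 1 lower; 2 were lower with quantile normalization, 3 with median centring, 3 with 75th percentile centring, 3 with a filter at the 60th percentile, 3 with array weights and between 1 and 3 without single arrays. Without the intensity trend 0 were higher (adjusted p of Klf10 0.0546). Over all probe sets, 1596 were higher and 1344 lower with the deposited scaling, 730 and 3132 with median centring, 1124 and 1923 with 75th percentile centring, 634 and 431 without the trend, and 999 to 1350 were higher without single arrays. With the replicate block 1336 and 1143 were called and the members' calls stood at 1 and 1. Under the block the calls of Klf11 (adjusted p = 0.0561), Elk3 (0.0722) and Map2k1 (0.0673) ended. Without single arrays the sign turned, with no call, for 3 Klf2 probe sets (-0.33 to 0.11, -0.44 to 0.33 and -0.43 to 0.33), for Klf4 (-0.01 to 0.38) and for the Klf6 probe set 1388986_at (-0.37 to 0.08). Depth is unknown for arrays; 12 of the 14 tested member probe sets had signals under 200, where the spread within groups was wider.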
